A study of Mus musculus with 12 samples.

Results

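The mitochondrial ribosomal protein genes are the nuclear genes that carry the symbols Mrpl, for the large ribosomal subunit, and Mrps, for the small one. They were taken from the deposited gene table as every protein-coding gene whose symbol consists of Mrpl or Mrps, a number and at most 1 further letter. This rule used no measured value and gave 78 of the 43322 genes in the table, and all 78 passed the filter on low counts that left 17077 genes for testing. By place in the ribosome, 30 encode large subunit proteins with a bacterial counterpart, 21 encode large subunit proteins added in mitochondria, 16 encode small subunit proteins with a bacterial counterpart and 10 encode small subunit proteins added in mitochondria. Mrps30 and Mrps18a sit in the large subunit in spite of their symbols and are counted there. Mrps36, whose product is now known as a component of the alpha-ketoglutarate dehydrogenase complex, was kept under the rule but put in no subunit.

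Poly-A RNA was sequenced from cultured glial cells of the frontal cortex of wild-type CD1 mice, prepared at postnatal day 3 to 5, each culture from 1 animal. The cells grew with 10 ng/ml epidermal growth factor (EGF), were split at day 7 and were used 3 to 7 days later. One group was treated for 60 min with 3 µM thapsigargin, which blocks the pumps that load the endoplasmic reticulum with calcium. A second group spent 60 min in medium without calcium and with the chelator EGTA, and the controls received vehicle. Each of the 3 groups had 4 libraries, which the series describes as biological replicates. These are mixed primary cultures measured as whole dishes, so fewer cells of a type and less RNA per cell cannot be told apart.

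The mitochondrial ribosome translates the few messenger RNAs of the mitochondrial genome, which encode core subunits of the respiratory chain and of the ATP synthase. Its ribosomal RNAs come from mitochondrial DNA, while its proteins are encoded in the nucleus, made in the cytosol and imported. Some of these proteins descend from the bacterial ancestor of mitochondria and others were added later, which gives this ribosome far more protein and less RNA than its bacterial relatives.

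Library totals ran from 36.19 to 42.57 M counts. The 3 libraries with replicate number 4, 1 in each group, stood apart from the rest: Xist, the RNA that silences an X chromosome, was at 588 to 740 CPM in them and at most 0.319 CPM in the other 9 (CPM, counts per M counts of the library, with TMM-normalised library sizes). The chi-square per degree of freedom between libraries of a group was 36.8 to 44.7 for pairs with replicate 4. Among replicates 1 to 3 it was 1.66 to 5.01 with thapsigargin, 2.18 to 3.68 in controls and 3.75 to 18.4 in calcium-free medium. Whether replicates 1 to 3 came from independent animals was not tested, so n = 4 may overstate the number of independent cultures. All 10 astrocyte markers of the list used were detected. Their summed level was 6316 ± 491 CPM with thapsigargin, 7372 ± 484 CPM in calcium-free medium and 7352 ± 572 CPM in controls (SD, n = 4 each). Markers of other cells were also present. With thapsigargin 1 of 10 astrocyte markers rose and 3 fell, and 2 of 10 microglia markers fell. Of all tested genes 16.4% rose and 14.8% fell. Once replicate numbers were blocked, 8 of 10 astrocyte and 9 of 10 microglia markers were lower, against 28.2% of all tested genes. All 10 microglia markers were below 0, with a median log2 fold change of -0.43. The summed level of the microglia list was 70.1 to 107 CPM with thapsigargin, 82.8 to 123 CPM in calcium-free medium and 89.1 to 149 CPM in controls, and that of the vascular and fibroblast list (7 of 8 genes tested, 0 called in edgeR, 0 at an unadjusted p under 0.05, 1 lower with the replicate block) was 367 to 1218, 557 to 1518 and 516 to 1432 CPM in the same order. Replicate 4 was lowest in every group for both lists. Neuron and oligodendrocyte markers (6 of 8 genes tested in each) summed to 350.1 to 388 and 223 to 248 CPM with thapsigargin, and to 396 to 427 and 248 to 283 CPM in controls, while Rbfox3, Slc17a7, Mog, Sox10 and the endothelial Cldn5 did not pass the filter. The part of these cells in the results was not tested.

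After 60 min with thapsigargin a large share of the mitochondrial ribosomal protein genes had less RNA, each by a small amount. Relative to controls, 38 of the 78 genes fell and 3 rose at an adjusted p under 0.05 (edgeR's quasi-likelihood test with Benjamini-Hochberg adjustment over all tested genes, used for every adjusted p here). Across all 17077 genes tested, 14.8% fell and 16.4% rose. The median log2 fold change was -0.13 over the 78 genes and -0.05 over all tested genes, and 67 of the 78 were below 0, against 57.3% of all tested genes. The 38 genes that fell did so by 0.11 to 0.45 on the log2 scale. The libraries of thapsigargin and control did not overlap for 33 lower and 2 higher members, against 15.1% and 16.7% of all tested genes.

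The counts depended on exon length. Members are short, with a median summed exon length of 1505.5 bp against 3597 bp over all tested genes, and across all tested genes the log2 fold change under thapsigargin rose with that length (Spearman rho 0.262 over 17077 genes, which share the same 8 libraries). Within the 78 members the same correlation was 0.119. With a smooth trend on exon length removed from each library, 21 members fell, 20 of them among the 38, and 9 rose, against 13.2% and 14.9% of all tested genes, and with the replicate block as well 25 fell and 12 rose, against 26.4% and 21.8%. The members' median was then -0.05, against -0.04 for all tested genes. The sign of 23 of the 78 members turned, for 21 of them to above 0, and Mrpl12, Mrps18c and Mrps28, which had fallen, were among these. Leaving out the 3 libraries of replicate 4 gave 40 falls, 34 of them among the 38, and 6 rises, against 21.2% and 24.4% of all tested genes. The replicate number as a block, which assumes a pairing seen for replicate 4 only, gave 55 falls and 4 rises, against 28.2% and 23%. Leaving out thapsigargin replicate 2 or thapsigargin replicate 3 gave 25 falls in either case.

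**Figure D1:**
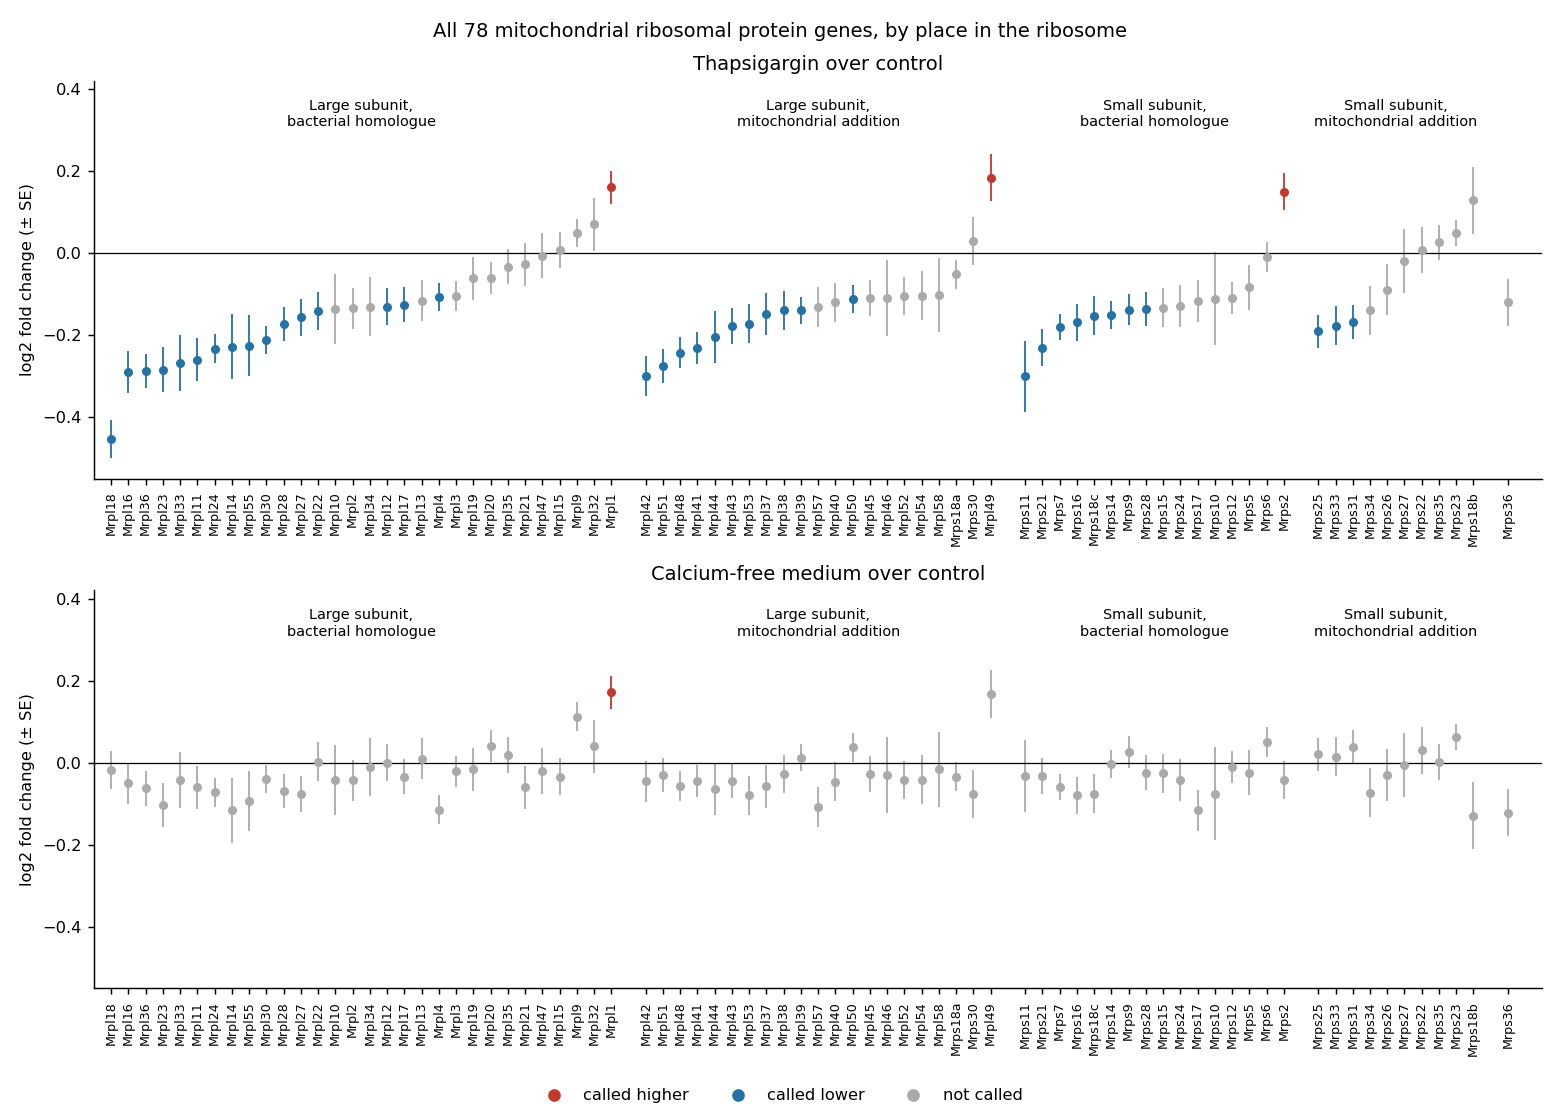
Log2 fold change (± SE) of each of the 78 genes for thapsigargin over control (top) and calcium-free medium over control (bottom), in columns by place in the ribosome, with Mrps36 last. Blue and red mark genes called lower and higher at an adjusted p under 0.05. The blue points number 38 in the upper panel and 0 in the lower one, and in both panels Mrpl1 is red.

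All 4 classes of ribosomal proteins held genes that fell, where 14.8% of all tested genes did. Among large subunit proteins with a bacterial counterpart 16 of 30 fell and Mrpl1 rose, and among the mitochondrial additions to that subunit 11 of 21 fell and Mrpl49 rose. In the small subunit, 8 of 16 genes with a bacterial counterpart fell and Mrps2 rose, and 3 of the 10 mitochondrial additions fell, with 0 called higher in edgeR (1, Mrps18b, with the replicate block). With the block the counts of falls were 21, 18, 12 and 4 in the order of these classes, against 28.2% of all tested genes, and with the exon length trend removed 12, 5, 3 and 1, against 13.2%. The class medians of the log2 fold change were -0.13, -0.13, -0.13 and -0.05, and the differences between the classes were not tested. Mrps36 had a log2 fold change of -0.12 ± 0.06 (adjusted p = 0.147). The 37 members that were not called ranged from -0.14 to 0.13.

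Summed over genes, the large subunit stood at 2161, 2083, 2102 and 2225 CPM in the thapsigargin libraries (replicates 1 to 4 in this and every such list), at 2267, 2327, 2311 and 2357 CPM in the calcium-free libraries and at 2363, 2345, 2378 and 2351 CPM in the control libraries. All 4 thapsigargin libraries were below all libraries of the other groups. The small subunit stood at 1184, 1123, 1155 and 1218 CPM with thapsigargin, at 1215, 1231, 1212 and 1260.5 CPM in calcium-free medium and at 1237, 1230, 1217 and 1248 CPM in controls. Here thapsigargin replicate 4 lay just above the lowest control (1217.79 against 1217.33 CPM), and the other 3 thapsigargin libraries lay below all controls. With RLE in place of TMM factors, thapsigargin replicate 4 was at 1201.6 CPM, below the lowest control at 1209.82 CPM. Its place among the controls thus depends on the normalization. As a share of the control mean, the large subunit sum was 90.8% with thapsigargin and 98.1% in calcium-free medium, and the small subunit sum was 94.9% and 99.7%.

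**Figure D2:**
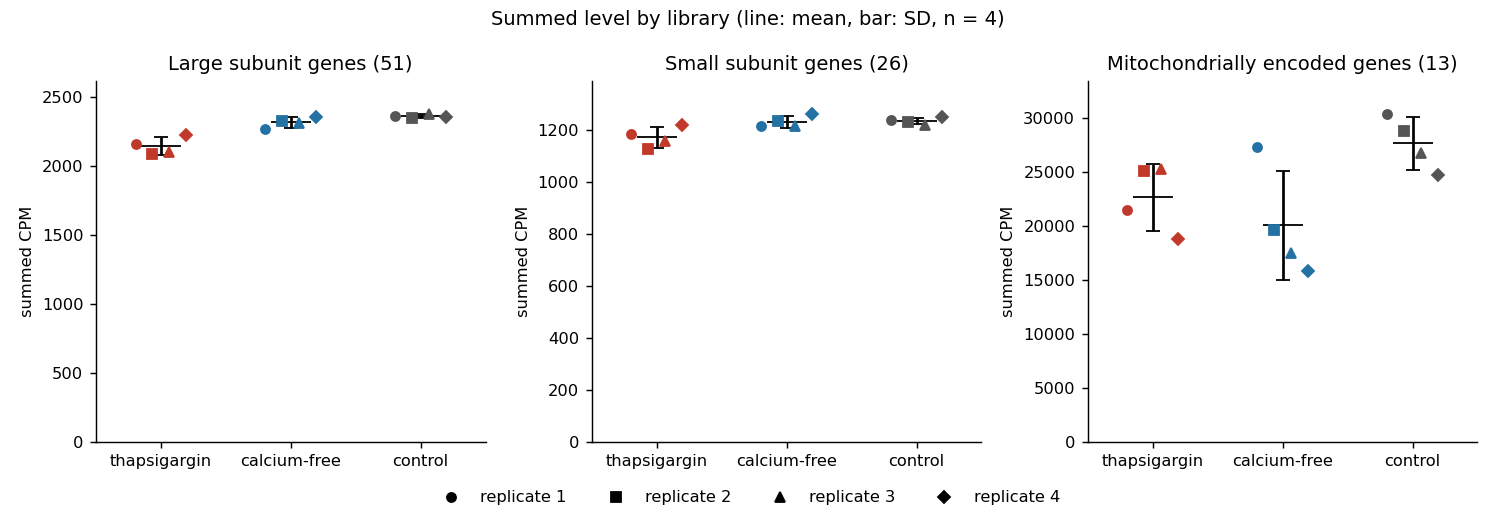
Summed CPM of the 51 large subunit genes, the 26 small subunit genes and the 13 mitochondrially encoded genes in each library, by group, with the mean and SD of 4 libraries. The large subunit sums of thapsigargin libraries, 2083 to 2225 CPM, lie under all control sums, while the mitochondrially encoded sums spread widely within each treated group.

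Mrpl18, the counterpart of a bacterial protein that binds the small ribosomal RNA of the large subunit, had the largest fall of all 78 genes (gene ID 67681, GRCm39 chr17:13130232-13136674, minus strand). It stood at 43.5, 46.6, 44.5 and 48.5 CPM with thapsigargin, at 59.6, 60.9, 60.8 and 66.1 CPM in calcium-free medium and at 60.9, 63.4, 60.8 and 65.4 CPM in controls. Every thapsigargin library was below every other library, and the calcium-free and control libraries overlapped. The log2 fold change over control was -0.45 ± 0.05 (SE), a level 0.731 times that of controls (adjusted p = 1.9e-05). With the exon length trend removed it was -0.43 ± 0.05. Mrpl18 shares 1459 bp of its span with Tcp1, a chaperonin gene on the other strand, whose log2 fold change was -0.11 ± 0.06 (adjusted p = 0.214).

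Mrpl42, a mitochondrial addition to the large subunit, was at 74, 69, 72.9 and 79.2 CPM with thapsigargin, at 84.2, 88.7, 85.6 and 93.4 CPM in calcium-free medium and at 91.5, 86.4, 89.7 and 95.5 CPM in controls. The thapsigargin libraries were again the 4 lowest of the 12. Its log2 fold change over control was -0.30 ± 0.05 (adjusted p = 0.000633). Mrpl36, a small zinc-binding protein of the large subunit, was at 29.6, 29.9, 28.3 and 31.3 CPM with thapsigargin, at 33.6, 34.9, 35.4 and 35.5 CPM in calcium-free medium and at 35.5, 36.1, 35.7 and 38.2 CPM in controls. The thapsigargin libraries did not overlap with the others, and the log2 fold change over control was -0.29 ± 0.04 (adjusted p = 0.000269). With the exon length trend removed, Mrpl42 was at -0.13 ± 0.04 (adjusted p = 0.0223) and Mrpl36 at -0.14 ± 0.04 (adjusted p = 0.0204).

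Mrpl16 lies near the sites where transfer RNAs bind, and Mrpl23 at the exit of the peptide tunnel. Mrpl16 averaged 36 ± 1.84 CPM with thapsigargin, 42.5 ± 1.73 CPM in calcium-free medium and 44 ± 2.26 CPM in controls (SD, n = 4 each), a log2 fold change over control of -0.29 ± 0.05 (adjusted p = 0.000947). Mrpl23 averaged 12.7 ± 0.585, 14.4 ± 0.582 and 15.5 ± 0.679 CPM in the same order, with a log2 fold change over control of -0.28 ± 0.05 (adjusted p = 0.00163). For both genes all thapsigargin libraries were below all controls. With the exon length trend removed, Mrpl16 was at -0.16 ± 0.05 (adjusted p = 0.0341) and Mrpl23 at -0.14 ± 0.05 (adjusted p = 0.0454). Mrpl51 and Mrpl48, mitochondrial additions to the large subunit, fell by 0.27 ± 0.04 and 0.24 ± 0.04 on the log2 scale (adjusted p = 0.00032 and 0.000371), with no overlap between thapsigargin and control libraries. Mrpl33, one of the smallest large subunit proteins, had a log2 fold change of -0.27 ± 0.07 (adjusted p = 0.0107), which was -0.08 ± 0.08 (adjusted p = 0.515) with the exon length trend removed.

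In the small subunit, Mrps11, a protein of the platform on which messenger RNA lies, had a log2 fold change of -0.30 ± 0.09 (adjusted p = 0.0202). Its libraries stood at 27, 25.1, 24.7 and 21.8 CPM with thapsigargin, at 29.6, 32, 30.3 and 26.8 CPM in calcium-free medium and at 31.8, 30.7, 33.4 and 25.7 CPM in controls. Replicate 4 was the lowest library of all 3 groups, and the control of that number lay among the thapsigargin libraries. The call was lost without thapsigargin replicate 4 (adjusted p = 0.0503), without control replicate 1 (0.0589), without control replicate 3 (0.067) and with the exon length trend removed (0.218), while all these values stayed below 0. Mrps7, a protein of the head of the small subunit, was at 61.8, 60.1, 59.8 and 62.2 CPM with thapsigargin, at 65.4, 64.6, 66.8 and 68.3 CPM in calcium-free medium and at 69.6, 68.9, 70.4 and 67.4 CPM in controls. The thapsigargin libraries were the 4 lowest, and Mrps7 fell by 0.18 ± 0.03 on the log2 scale (adjusted p = 0.000907; -0.11 ± 0.03 with the exon length trend removed). Mrps21, the counterpart of a small bacterial protein, and the mitochondrial additions Mrps25 and Mrps31 fell by 0.23 ± 0.05, 0.19 ± 0.04 and 0.17 ± 0.04 (adjusted p = 0.00194, 0.00338 and 0.00756), but the calls of Mrps21 and Mrps31 were lost with the exon length trend removed (adjusted p of up to 0.407 and 0.14 over the 21 alternatives).

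**Figure D3:**
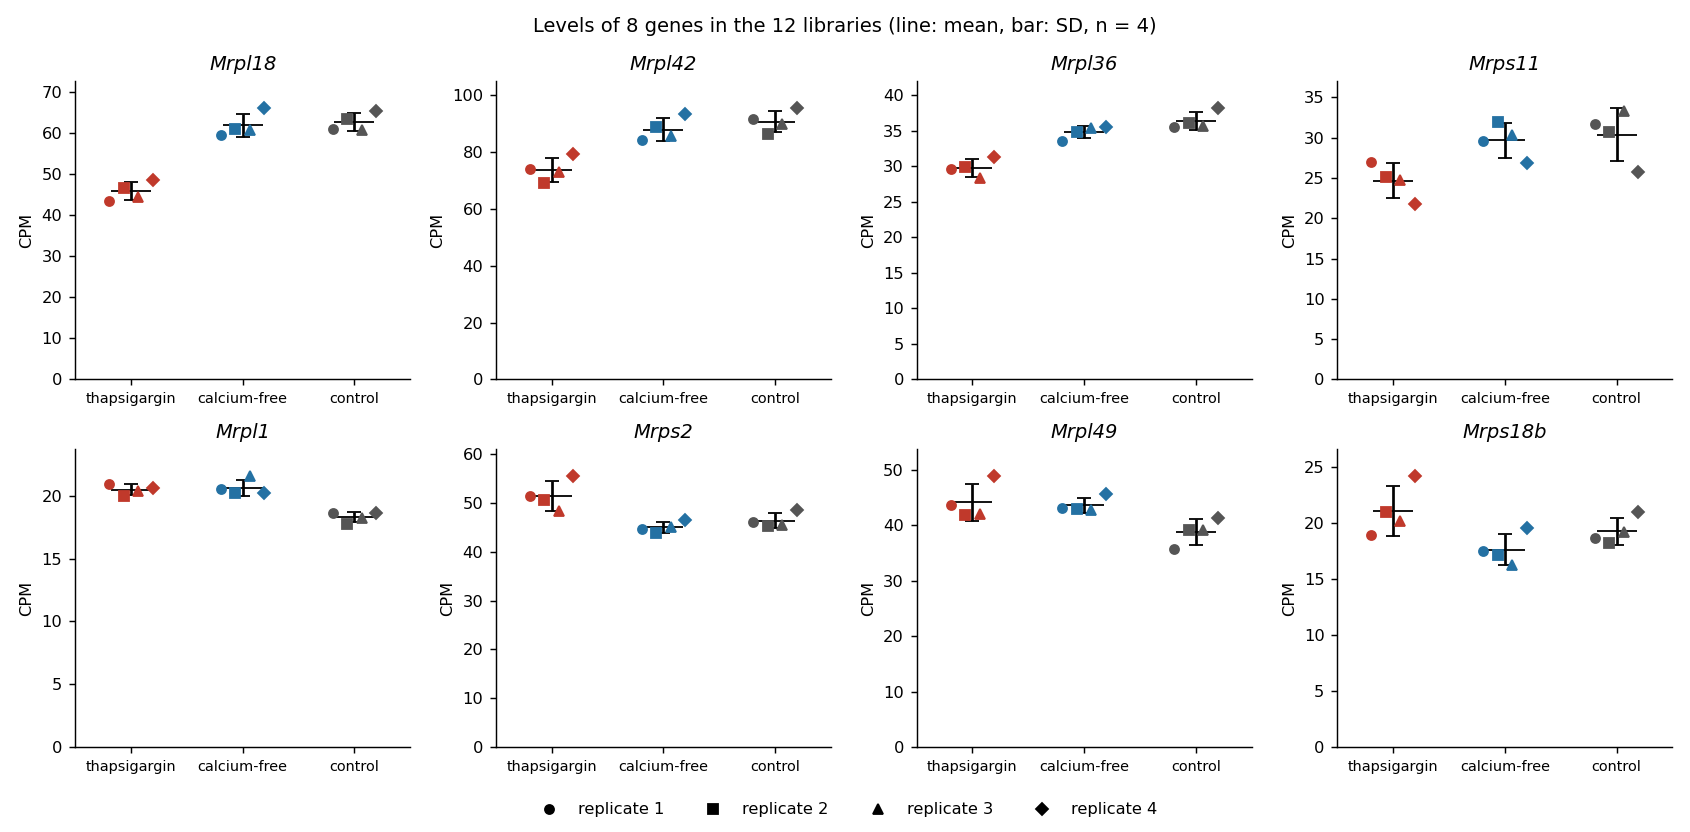
CPM of 8 mitochondrial ribosomal protein genes in each of the 12 libraries, with symbols by replicate number and the mean and SD of each group (n = 4). In the upper row the thapsigargin libraries of Mrpl18 lie at 43.5 to 48.5 CPM, below all others, and in the lower row Mrpl1 is lowest in controls.

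Mrpl1, the protein of the mobile stalk beside the exit site of transfer RNA, rose under both treatments. It stood at 21, 20, 20.4 and 20.6 CPM with thapsigargin, at 20.5, 20.3, 21.6 and 20.2 CPM in calcium-free medium and at 18.6, 17.8, 18.3 and 18.6 CPM in controls (gene ID 94061, GRCm39 chr5:96357357-96414586, plus strand). All 8 treated libraries were above all 4 controls. The log2 fold change over control was 0.16 ± 0.04 with thapsigargin (adjusted p = 0.00871) and 0.17 ± 0.04 in calcium-free medium (adjusted p = 0.0308). Both values rest on the same 4 control libraries. Thapsigargin and calcium-free libraries differed by -0.01 ± 0.04 (adjusted p = 0.886).

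Mrpl49 and Mrps2 rose with thapsigargin by 0.18 ± 0.06 and 0.15 ± 0.05 on the log2 scale (adjusted p = 0.0288 and 0.0244). Mrpl49, a mitochondrial addition to the large subunit, was at 43.7, 41.8, 42 and 48.8 CPM with thapsigargin, at 43, 42.9, 42.7 and 45.6 CPM in calcium-free medium and at 35.6, 39.1, 39.1 and 41.3 CPM in controls. Controls were lowest, and in calcium-free medium the log2 fold change over control was 0.17 ± 0.06 (adjusted p = 0.134, and 0.00594 with the replicate number as a block). Mrps2, a small subunit protein between head and body, was at 51.4, 50.6, 48.3 and 55.5 CPM with thapsigargin, at 44.6, 43.8, 45 and 46.6 CPM in calcium-free medium and at 46.1, 45.2, 45.4 and 48.6 CPM in controls. The lowest thapsigargin library was just below the highest control. Without thapsigargin replicate 4 neither rise passed the threshold (log2 fold change 0.13 with adjusted p = 0.0687 for Mrpl49, and 0.11 with 0.0587 for Mrps2), and the same held without control replicates 1, 2 or 3 (adjusted p of up to 0.0905 and 0.0713) and, for Mrpl49, without thapsigargin replicate 1 (0.052). Mrpl49 shares 89 bp with Syvn1 on the other strand.

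In calcium-free medium the members differed little from control levels. Mrpl1 was the only 1 of 78 that passed the threshold upward, against 3.78% of all tested genes, and 0 fell, against 1.55% of all tested genes, in edgeR. At an unadjusted p under 0.05 there were 6 members: Mrpl1, Mrpl9 and Mrpl49 with positive log2 fold changes and Mrpl4, Mrpl57 and Mrps17 with negative ones. DESeq2 called 3 members higher and 0 lower, and edgeR with the replicate number as a block called 3 higher (Mrpl1, Mrpl49 and Mrpl9, against 10.4% of all tested genes) and 2 lower (Mrpl4 and Mrps17, against 7.01%). The libraries did not overlap for 4 higher and 4 lower members, against 6.05% and 4.44% of all tested genes, and 60 of the 78 log2 fold changes were below 0, against 52.8%. Leaving out replicate 4 gave 2 members higher and 1 lower, against 10.5% and 5.16%, and removing the exon length trend gave 2 higher and 1 lower, against 3.3% and 1.36%. Both steps of block and length together gave 5 higher and 2 lower, against 9.99% and 7%. The median log2 fold change was -0.03 over the members and -0.01 over all tested genes, and it became 0.01 for the members with the exon length trend removed. All members lay between -0.13 and 0.17. The call of Mrpl1 was lost in 9 of 21 alternatives, with adjusted p of up to 0.103, among them those without thapsigargin replicate 3, without calcium-free replicates 2 or 3 and without control replicates 1, 2 or 3.

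Thapsigargin set directly against calcium-free medium gave 24 members lower and 2 higher, against 13.2% and 14.6% of all tested genes. With the replicate number as a block the counts were 39 lower and 3 higher, against 26.9% and 22.4%. The libraries did not overlap for 24 lower members and 1 higher member, against 13.4% and 14.9%, and 66 of the 78 differences were below 0, against 53.8%. Without replicate 4 there were 26 lower and 3 higher members (background 19.4% and 21.7%), with the exon length trend removed 18 and 2 (13.5% and 13.8%), and with block and length together 26 and 5 (27% and 21.1%). The median log2 difference was -0.09 over the members and -0.02 over all tested genes. Mrpl18 was again the gene with the largest difference, at -0.43 ± 0.05 (adjusted p = 4.99e-05), followed by Mrps11 at -0.27 ± 0.09 (adjusted p = 0.0389), Mrpl42 at -0.25 ± 0.05 (adjusted p = 0.00257) Mrpl51 at -0.24 ± 0.04 (adjusted p = 0.00102), Mrpl16 at -0.24 ± 0.05 (adjusted p = 0.00421) and Mrpl33 at -0.23 ± 0.07 (adjusted p = 0.0293). Mrps11 lost its call in 11 of the 21 alternatives and Mrpl33 in 9, of which 8 and 6 leave out 1 library (adjusted p of up to 0.113 and 0.0798 there). The thapsigargin libraries are shared with the comparison against controls.

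Mrps18b and Mrps2 were the 2 genes above calcium-free levels. Mrps18b, a mitochondrial addition to the small subunit, was at 18.9, 21, 20.2 and 24.2 CPM with thapsigargin, at 17.5, 17.1, 16.3 and 19.5 CPM in calcium-free medium and at 18.6, 18.2, 19.2 and 21 CPM in controls. Replicate 4 was the highest library in every group, so thapsigargin and calcium-free libraries overlapped. The log2 difference between thapsigargin and calcium-free medium was 0.26 ± 0.08 (adjusted p = 0.0333), and the call was lost without thapsigargin replicates 2 or 4 and without calcium-free replicates 1, 2 or 3 (adjusted p of up to 0.0978). Against controls Mrps18b had 0.13 ± 0.08 with thapsigargin (adjusted p = 0.269, and 0.0365 with the block) and -0.13 ± 0.08 in calcium-free medium (adjusted p = 0.497). For Mrps2 the log2 difference between thapsigargin and calcium-free medium was 0.19 ± 0.05 (adjusted p = 0.00758), with no overlap of libraries.

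Levels between genes were compared per kilobase of summed exon length, which covers the exons of all annotated transcripts of a gene. In controls the members had a median of 24.1 CPM per kb. Mrps6 stood far above the rest at 420.2 ± 11.6 CPM per kb, followed by Mrpl42 at 131.8 ± 5.52, Mrpl12, the stalk protein that recruits translation factors, at 91.4 ± 3.63, Mrpl33 at 87.3 ± 4.36 and Mrpl52 at 84.7 ± 1.4 CPM per kb (SD, n = 4 each). The lowest were Mrpl14 at 3.63 ± 0.346, Mrpl1 at 3.92 ± 0.0853, Mrps10 at 4.82 ± 0.657, Mrpl4 at 6.45 ± 0.21 and Mrpl19 at 6.61 ± 0.114 CPM per kb, all with summed exons of over 4 kb. In this order Mrpl12 and Mrpl33, Mrpl33 and Mrpl52, Mrpl14 and Mrpl1, and Mrpl4 and Mrpl19 differed by less than the larger of their SDs, and the other neighbours by more. Mrps6 lies on the same strand as Slc5a3, the sodium and myo-inositol transporter, which shares 29138 bp of its span and had 428 CPM in controls, so the level of Mrps6 is uncertain.

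Mrps6 was at 329.8, 311, 328 and 335 CPM with thapsigargin, at 336, 339.9, 330.5 and 352 CPM in calcium-free medium and at 337, 324, 317 and 333 CPM in controls. All 3 groups overlapped, and its log2 fold change with thapsigargin was -0.01 ± 0.04 (adjusted p = 0.894). With the exon length trend removed it was 0.15 ± 0.03 (adjusted p = 0.00339), so its direction depends on that choice. Mrpl12 fell by 0.13 ± 0.05 on the log2 scale (adjusted p = 0.0469), with a call lost in 13 of 21 alternatives, 9 of which leave out 1 library (adjusted p of up to 0.139 there), and a value of 0.01 with the exon length trend removed. Mrpl14 and Mrpl4 had log2 fold changes of -0.23 ± 0.08 and -0.11 ± 0.04 (adjusted p = 0.0461 and 0.0363), lost in 14 and 10 of the alternatives, of which 10 and 6 leave out 1 library (adjusted p of up to 0.132 and 0.111 there). Mrpl52, Mrps10 and Mrpl19 did not pass the threshold, with values of -0.10 ± 0.05, -0.11 ± 0.11 and -0.06 ± 0.05 (adjusted p = 0.117, 0.517 and 0.432; Mrpl52 had 0.0367 with the block).

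Between replicates the members varied less than all tested genes, which were not matched to them by level. Whether members vary less than genes of like level was not tested. The median coefficient of variation of their CPM was 4.94% with thapsigargin, 3.47% in calcium-free medium and 3.78% in controls, against 8.45%, 9.21% and 8.52% over all tested genes. The deposited counts of 49 members were not whole in at least 1 library. The span of 23 members met that of another tested gene, for 19 of them on the other strand only. Of the 55 members that met no other tested gene, 26 fell and 1 rose with thapsigargin, against 14.8% and 16.4% of all tested genes. The median log2 fold change was -0.13 over these 55 members and -0.05 over all tested genes. These values are not corrected for exon length.

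Start sites of these genes often lay near that of a protein-coding gene on the other strand. The annotated start of 30 members (38.5%) lay within 1000 bp of the start of a protein-coding gene on the other strand, against 14.6% of the 14680 tested protein-coding genes. In some of these pairs the spans overlap at the starts, as for Mrpl43 with Twnk (759 bp) and Mrpl48 with Rab6a (731 bp). Such pairs were counted together with those whose starts lie apart without overlap. One pairing joins 2 members, Mrpl46 and Mrps11, whose starts are 42 bp apart. Of the 30 partners, 7 fell and 5 rose with thapsigargin, against 14.8% and 16.4% of all tested genes. Among the 12 paired members that fell, the partner also fell for 2, rose for 3 and was not called for 7. Mrps18c fell by 0.15 while Helq, a DNA helicase gene with its start 96 bp away, rose by 0.76 ± 0.14 on the log2 scale (adjusted p = 0.00123). Mrpl50 fell by 0.11 while Zfp189, a zinc finger gene 93 bp away, rose by 0.73 ± 0.11 (adjusted p = 0.000328). The calls of both members were lost with the exon length trend removed (log2 fold change 0.03, adjusted p = 0.704 for Mrps18c, and -0.07, adjusted p = 0.166 for Mrpl50) and without replicate 4 (-0.11, adjusted p = 0.0959, and -0.08, adjusted p = 0.0668). The reverse occurred for Mrpl49, which rose, while Fau, the gene of a cytosolic ribosomal protein 192 bp away, fell by 0.29 ± 0.07 (adjusted p = 0.00534).

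**Figure D4:**
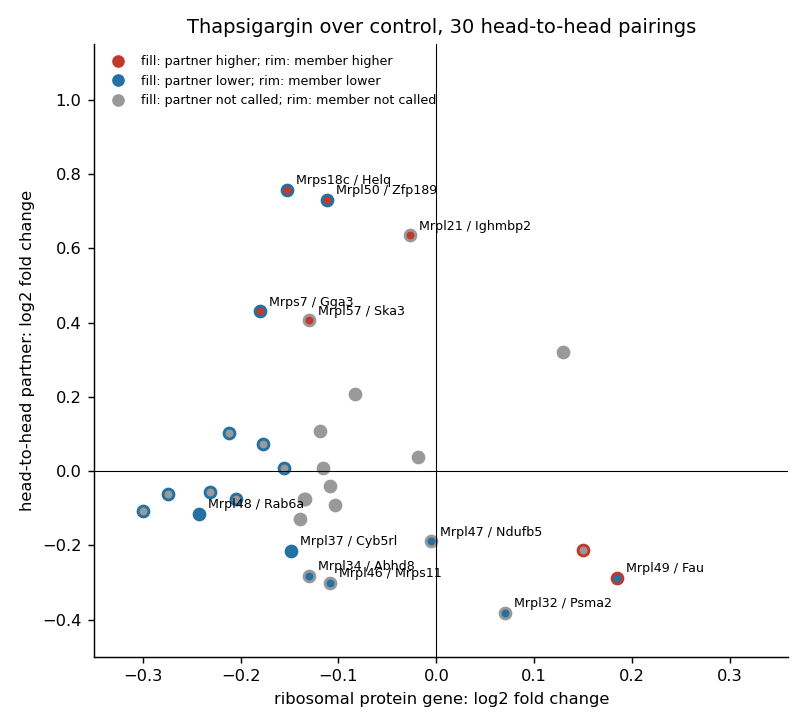
Log2 fold change with thapsigargin over control of the 30 members with a protein-coding start within 1000 bp on the other strand (x axis) and of that partner gene (y axis). Pairs with overlapping spans are included. Rim and fill give the calls of the member and the partner. Points with every pairing of signs show members and partners with equal and with opposite signs, such as Mrps18c with Helq and Mrpl49 with Fau.

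Promoters are shown for the genes with a large fall (Mrpl18, Mrpl42, Mrpl36), for Mrpl1, which rose, and for 2 members that hold the letters of both the ETS and the NRF1 motif (Mrpl22 and Mrps18a). The sequences are the 150 bases before the annotated start in RefSeq, build GRCm38.p6, 5′ to 3′ on the strand of the gene. Capitals mark exact matches, on either strand, to 7 short motifs, of which these stretches hold CCGGAAG (ETS factors such as GABPA), TGCGCA (the core of an NRF1 site), GATGGCG (YY1), GGGCGG (SP factors), CCAAT (NF-Y) and TGACG (the core of a CREB and ATF site). The coordinates are chr17:12916092-12916241 (minus), chr10:95501950-95502099 (minus), chr13:73330859-73331008 (plus), chr5:96209965-96210114 (plus), chr11:58171514-58171663 (plus) and chr17:46110854-46111003 (plus), in the order printed.
Mrpl18: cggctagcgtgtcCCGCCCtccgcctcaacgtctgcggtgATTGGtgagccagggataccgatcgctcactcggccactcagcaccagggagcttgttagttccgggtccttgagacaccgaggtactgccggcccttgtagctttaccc
Mrpl42: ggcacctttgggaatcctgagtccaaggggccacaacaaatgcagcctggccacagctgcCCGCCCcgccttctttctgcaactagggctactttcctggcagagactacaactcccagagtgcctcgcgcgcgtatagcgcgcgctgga
Mrpl36: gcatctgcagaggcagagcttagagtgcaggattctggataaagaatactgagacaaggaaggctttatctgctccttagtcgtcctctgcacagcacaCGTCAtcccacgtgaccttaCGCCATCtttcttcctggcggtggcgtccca
Mrpl1: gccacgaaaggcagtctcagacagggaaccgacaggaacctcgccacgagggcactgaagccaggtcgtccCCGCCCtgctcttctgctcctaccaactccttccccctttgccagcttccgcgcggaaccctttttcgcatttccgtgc
Mrpl22: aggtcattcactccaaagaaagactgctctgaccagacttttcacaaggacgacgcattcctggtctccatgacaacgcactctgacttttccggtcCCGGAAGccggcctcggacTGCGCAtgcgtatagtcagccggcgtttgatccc
Mrps18a: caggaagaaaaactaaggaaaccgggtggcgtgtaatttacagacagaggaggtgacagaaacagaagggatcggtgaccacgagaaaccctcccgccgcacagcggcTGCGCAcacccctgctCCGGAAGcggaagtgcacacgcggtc

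The ETS and NRF1 letters, which belong to factors known for nuclear genes of mitochondrial proteins, were more frequent in members than in other promoters. In windows of 250 bases before to 50 after the start, 75 promoters of 69 members were found. CCGGAAG was in 34.7% of them, against 15.5% of 14787 promoters of tested protein-coding genes and 8.86% of all 32851 promoters. TGCGCA was in 29.3%, against 12.7% and 7.76%, and GATGGCG in 10.7%, against 5.59% and 3.49%. The SP letters were in 52%, against 60.1% and 35.7%, the NF-Y letters in 40%, against 37.8% and 37.4%, and the letters TATAAA of the TATA box in 6.67%, against 7.59% and 13.6%. Mrpl22, printed above with both, fell by 0.14 ± 0.05 on the log2 scale (adjusted p = 0.0388), with no call once the exon length trend was removed (-0.06, adjusted p = 0.402) or replicate 4 left out (-0.12, adjusted p = 0.0528). Promoters of members that fell with thapsigargin held CCGGAAG in 33.3% of 39 and TGCGCA in 25.6%, and those of the other members in 36.1% and 33.3% of 36. TGACG, the CREB and ATF letters, was also more frequent in members. It was in 41.3% of their promoters, against 28.9% of promoters of tested protein-coding genes and 20.8% of all promoters. It was in 30.8% of promoters of members that fell and in 52.8% of the other members' promoters. A match is a description and not a site, these shares had no test, and some genes have several promoters.

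Between the facing starts of Mrpl46 and Mrps11, the single pairing within the family, lie 41 bases at chr7:78783090-78783130 of GRCm38.p6. They are printed on the strand of Mrps11, with the SP letters in capitals.
Mrpl46 to Mrps11: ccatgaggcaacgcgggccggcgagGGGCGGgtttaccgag
Mrps11 fell with thapsigargin, as above, and Mrpl46 had a log2 fold change of -0.11 ± 0.09 (adjusted p = 0.427, and 0.0416 with the replicate block).

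The 5 subunits of the mitochondrial ribosome that carry other names also moved with thapsigargin, 3 of 5 downward and 1 upward, against 14.8% and 16.4% of all tested genes. Dap3, a GTP-binding protein of the small subunit, was at 65.7, 61.9, 64 and 66.9 CPM with thapsigargin, at 68.2, 72.2, 70.2 and 72 CPM in calcium-free medium and at 68.4, 70.4, 71 and 70.5 CPM in controls, and fell by 0.12 ± 0.03 on the log2 scale against controls (adjusted p = 0.0206). Chchd1 and Aurkaip1, small subunit proteins as well, fell by 0.16 ± 0.05 and 0.15 ± 0.04 (adjusted p = 0.0184 and 0.0173), and with the exon length trend removed Chchd1 had 0.01 and Aurkaip1 had -0.05 (adjusted p = 0.47). The call of Dap3 was lost without thapsigargin replicates 2 or 3 and without control replicates 2 or 3 (adjusted p of up to 0.0694), that of Aurkaip1 without thapsigargin replicate 2 or control replicate 3 (up to 0.0553), and that of Chchd1 without thapsigargin replicate 2 (0.0566). Ptcd3, at the channel where messenger RNA enters, was at 61.8, 60.8, 63.5 and 69.1 CPM with thapsigargin, at 57.1, 58.5, 57.8 and 57.1 CPM in calcium-free medium and at 52, 54.1, 50.5 and 56.3 CPM in controls. Thapsigargin libraries were the 4 highest, and Ptcd3 rose by 0.26 ± 0.05 (adjusted p = 0.000972). Gadd45gip1, at the exit of the tunnel, had -0.01 ± 0.05 (adjusted p = 0.903).

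Genes that serve the ribosome moved in both directions. The counts for these and the lists that follow are not corrected for exon length, and its part in them was not tested. Of 28 assembly factors 9 rose and 4 fell with thapsigargin, against 16.4% and 14.8% of all tested genes. With the block 12 rose and 4 fell, against 23% and 28.2%. The median log2 fold change of these factors was 0.09. Ddx28, an RNA helicase of large subunit assembly, was at 13.7, 12.7, 13 and 14.3 CPM with thapsigargin, at 9.37, 9.47, 10.2 and 7.61 CPM in calcium-free medium and at 8.72, 8.89, 10.2 and 9.18 CPM in controls. Thapsigargin libraries alone were high, and Ddx28 rose by 0.54 ± 0.09 (adjusted p = 0.000563). Ptcd1, which acts on the large ribosomal RNA, rose by 0.39 ± 0.05 with thapsigargin (adjusted p = 0.000191) and by 0.24 ± 0.05 in calcium-free medium (adjusted p = 0.0273, lost without any 1 of 6 libraries, with values of up to 0.0787), and Mettl17, a small subunit assembly factor, rose by 0.35 ± 0.11 with thapsigargin (adjusted p = 0.0257). The Mettl17 call was lost without thapsigargin replicate 4 and without control replicates 1, 2 or 3 (adjusted p of up to 0.0753).

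Among 18 translation factors and messenger RNA partners 4 rose and 4 fell with thapsigargin, against 16.4% and 14.8% of all tested genes. With the block 5 rose and 8 fell, against 23% and 28.2%. Mtif2, the initiation factor, rose by 0.31 ± 0.04 on the log2 scale (adjusted p = 9.86e-05), Mtrf1l, a release factor, rose by 0.31 ± 0.08 (adjusted p = 0.00835), and Lrpprc, which stabilises mitochondrial messenger RNA, fell by 0.16 ± 0.04 (adjusted p = 0.00942). Of 17 mitochondrial transfer RNA synthetases 3 fell and 1 rose, a share near that of all tested genes for the falls. With the block 4 fell and 1 rose, against 28.2% and 23%. Aars2, for alanine, and Iars2, for isoleucine, fell by 0.30 ± 0.07 and 0.16 ± 0.04 (adjusted p = 0.0056 and 0.0135). Nars2, for asparagine, fell in calcium-free medium, at 17, 16.1, 15.4 and 16.7 CPM there against 20.2, 21.5, 21 and 20.5 CPM in controls (log2 fold change -0.35 ± 0.05, adjusted p = 0.00171), and had -0.10 ± 0.05 with thapsigargin (adjusted p = 0.136).

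Regulators of mitochondrial gene expression are set here against the 16.4% of all tested genes that rose with thapsigargin and the 14.8% that fell. With the replicate block these shares were 23% and 28.2%. Of 10 genes for transcription and upkeep of mitochondrial DNA 4 rose and 0 fell with thapsigargin in edgeR (4 at an unadjusted p under 0.05; 1 lower with the replicate block), among them Mterf1a at 0.66 ± 0.13, Polg2 at 0.45 ± 0.16 and Tefm at 0.32 ± 0.07 (adjusted p = 0.00228, 0.047 and 0.00394). The Polg2 call was lost in 9 of the 21 alternatives, 8 of which leave out 1 library (adjusted p of up to 0.117). Of 9 regulators of mitochondrial biogenesis 4 rose and 0 fell (6 at an unadjusted p under 0.05; 6 higher and 1 lower with the block). Myc was at 27.6, 29.8, 28.3 and 30.3 CPM with thapsigargin, at 19.1, 18.9, 20.3 and 17.8 CPM in calcium-free medium and at 14.7, 16.3, 17 and 14.8 CPM in controls, with log2 fold changes over control of 0.89 ± 0.06 with thapsigargin (adjusted p = 1.04e-06) and 0.28 ± 0.06 in calcium-free medium (adjusted p = 0.0235, lost without any 1 of 3 libraries, with values of up to 0.0802). The coactivator genes Ppargc1a and Pprc1 rose by 0.36 ± 0.04 and 0.44 ± 0.09 with thapsigargin (adjusted p = 3.59e-05 and 0.00273).

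**Figure D5:**
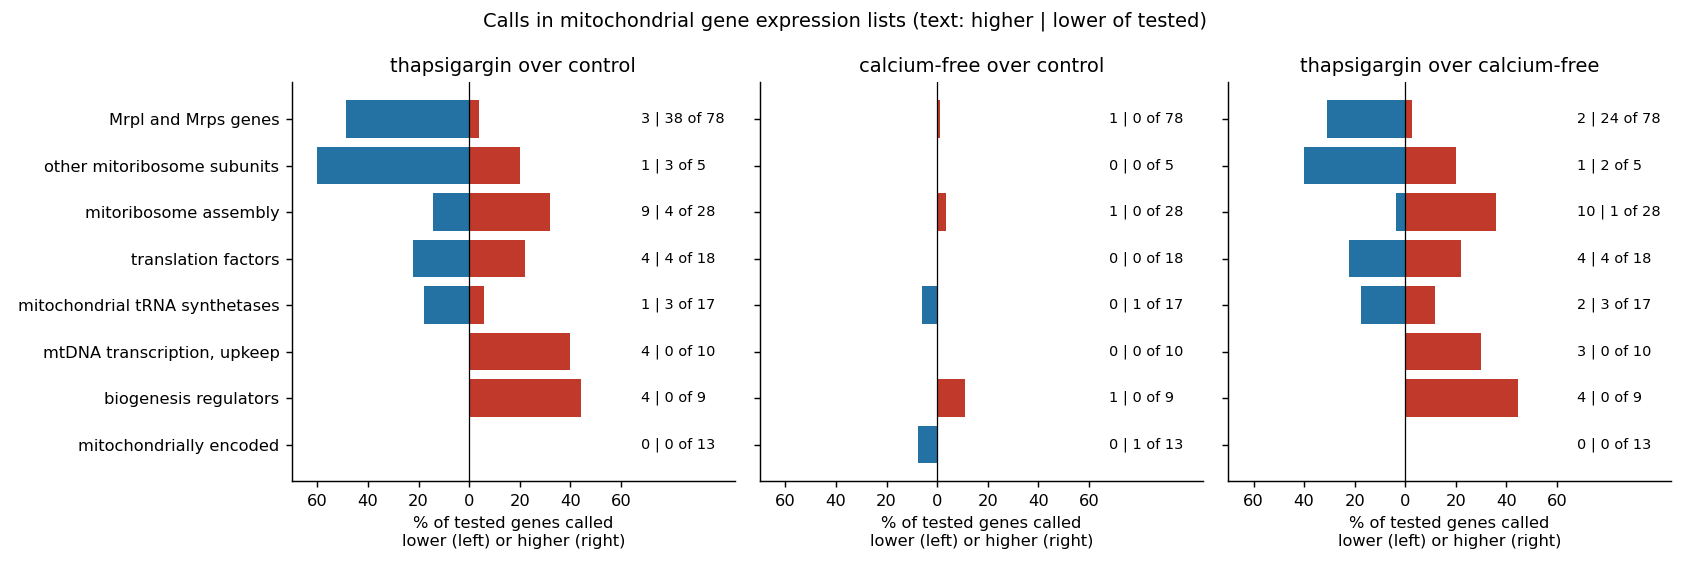
Share of the tested genes of each list that were called lower (blue, left) or higher (red, right) in each comparison, with the counts beside the bars. The Mrpl and Mrps genes show 38 lower and 3 higher for thapsigargin over control, the assembly factors 4 lower and 9 higher. These counts are not corrected for exon length, which gave 21 lower and 9 higher for the Mrpl and Mrps genes.

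The messenger RNAs that the mitochondrial ribosome translates varied widely between libraries. The 13 mitochondrially encoded genes summed to 21452, 25048, 25208 and 18810 CPM with thapsigargin, to 27260, 19604, 17459 and 15826 CPM in calcium-free medium and to 30354, 28760, 26685 and 24656 CPM in controls. The groups overlapped. Within replicate numbers the sum was below its control in 4 of 4 thapsigargin and 4 of 4 calcium-free libraries. Among numbers 1 to 3, libraries of the same number did not deviate together more than others (median r 0.331 against 0.357). The count within numbers is therefore a description and not a paired test. With thapsigargin 0 of 13 were called in edgeR (0 at an unadjusted p under 0.05), where 14.8% of all tested genes fell and 16.4% rose. With the replicate block 3 of 13 were lower, against 28.2% of all tested genes. In the fit without the block 12 of 13 log2 fold changes were below 0. In calcium-free medium all 13 were below 0 with a median of -0.49, and 11 had an unadjusted p under 0.05. There edgeR called 1 lower, against 1.55% of all tested genes, or 5 with the block, against 7.01%. The 1 was ND1 (log2 fold change -0.62 ± 0.16, adjusted p = 0.0444), with a call lost in 13 of 21 alternatives, 9 of which leave out 1 library (adjusted p of up to 0.141). ATP6 and ATP8 had -0.18 ± 0.09 and -0.19 ± 0.11 with thapsigargin (adjusted p = 0.148 and 0.213), and ATP6 passed with the block (adjusted p = 0.0106). In calcium-free medium they had -0.33 ± 0.09 and -0.38 ± 0.11 (adjusted p = 0.0575 and 0.0576), and both passed with DESeq2 and with the block (0.00124 for ATP6 and 0.0271 for ATP8).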

How the data were processed

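Stranded poly-A libraries were made, per the labels' protocols. STAR 2.7.2b, featureCounts 1.6.4 from Subread, cutadapt 1.17 and bcl2fastq 2.20.0.422 are named with GRCm39 per the submitters' processing notes, and their options and the strand setting of counting were not found in the labels. The authors deposited 1 table of estimated counts per gene; between 14.2% and 15.9% of a library's entries were fractions, so these expected counts were rounded first. Genes that overlap others are uncertain.

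Tests used edgeR 4.0.16 in R 4.3.3 with TMM factors, filterByExpr on the 3 groups (minimum count 10), a robust quasi-likelihood fit of all 12 libraries with 1 mean per group, and Benjamini-Hochberg adjustment (threshold 0.05); SEs follow from the F statistic. DESeq2 1.42.0 was an alternative. The fit was tried on simulated data, but no outcome is given here and no result rests on it. Same-numbered libraries of different groups deviated together from their group means in every pair (r 0.159 to 0.836, all over 0.1). For pairs without number 4 the range was 0.159 to 0.392, with number 4 still part of the group means. The numbers were taken to pair libraries and blocked counts are given. Among numbers 1 to 3, pairs with different numbers reached r 0.238 to 0.412, so there the values show no closer tie within a number, and the tie rests on number 4. Number 4 shifts the group means, so numbers 1 to 3 deviate the same way and the threshold of 0.1 cannot decide their pairing. For them the block is an assumption. P-values measure the spread between these libraries, and the independence of numbers 1 to 3 was not tested.

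The named genes were, per comparison, up to 6 called members with the largest rise and 6 with the largest fall; in each subunit class the 2 with the smallest p of any difference among groups; the 5 highest and 5 lowest per kb in controls; 3 genes of each other list by the same p; and the 5 subunits with other names. Facing and overlapping genes, and other members named in counts, were chosen after their values were seen. Members and lists were chosen with earlier results of these data known. Promoters are RefSeq GRCm38.p6, gene positions those of the table.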

Additional observations from a re-analysis of the deposited data

Results flagged for a closer look

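Of 156 groups of 4 libraries examined, 9 held a library far from the other 3 by Dixon's 95% criterion, which chance passes in about 1 of 20 groups. In 7 of them this was replicate 4. Mrpl49 was at 45.6 CPM in calcium-free replicate 4, above 42.7 to 43 CPM in the others. Mrps10 was at 18.7 CPM in calcium-free replicate 4, below 24.5 to 25.2 CPM. In control replicate 4, Mrpl16 was at 40.7 CPM, below 44.8 to 45.4 CPM, Mrpl33 at 37.6 CPM, below 41.5 to 41.8 CPM, and Mtrf1l at 11.7 CPM, above 10.4 to 10.6 CPM. In thapsigargin replicate 4, Mettl17 was at 18.8 CPM, above 16.1 to 16.5 CPM, and ATP6 at 2120.4 CPM, below 2424 to 2440.1 CPM. Mrpl48 was at 29.8 CPM in thapsigargin replicate 3, below 30.5 to 30.6 CPM, and Polg2 at 2.03 CPM in calcium-free replicate 3, below 3.37 to 3.63 CPM.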

How the results depend on the processing

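Over the 21 alternatives to the fit, the members' median for thapsigargin over control stayed below 0, and so did the median over all tested genes. With the exon length trend removed the 2 medians were -0.05 and -0.04. Leaving out 1 library at a time gave 25 to 46 members lower and 1 to 3 higher for thapsigargin over control (all genes 1924 to 2719 and 2361 to 3031), 0 lower and 0 to 1 higher for calcium-free over control (all genes 76 to 600 and 296 to 849), and 19 to 32 lower and 1 to 3 higher for thapsigargin over calcium-free (all genes 1623 to 2545 and 1993 to 2654). Leaving out replicate 4 gave 6 members higher for thapsigargin over control, and 1 lower and 2 higher for calcium-free over control (all genes 877 and 1782).

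With no filter on low counts, 17 members and 1456 of all genes were lower for thapsigargin over control, 0 members higher and 175 of all genes lower for calcium-free over control, and 13 members and 1247 of all genes lower for thapsigargin over calcium-free; more genes enter the adjustment there. For calcium-free over control, DESeq2 called 3 members higher (all genes 402 lower, 1084 higher), upper quartile factors 0 higher and 1 lower, and a fit of only the 2 groups 0 higher (all genes 96 lower, 404 higher), with fewer libraries. The replicate block called 4817 of all genes lower for thapsigargin over control, 2 members lower and 3 higher for calcium-free over control (all genes 1197 and 1771), and 39 members lower for thapsigargin over calcium-free (all genes 4595 lower, 3833 higher); counts of the lists under the block stand in the results.

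With the exon length trend removed, 21 members were lower and 9 higher for thapsigargin over control, and 1 lower and 2 higher for calcium-free over control; block and length together gave 25 and 12 (all genes 4509 lower), 2 and 5 (all genes 1195 and 1706), and, for thapsigargin over calcium-free, 5 members higher (all genes 4614 lower). For thapsigargin over control the sign of 23 members then turned, among them Mrps6 (0.149; 0.150 with the block), and Mrpl12 (0.0118; 0.0121), and so did that of Chchd1 (0.0122; 0.0122). The cause was not tested. RLE factors gave a control sum over members of 3586 CPM. Of all calls, 52.5% were higher for thapsigargin over control (66.5% with no filter, 44.6% with upper quartile factors) and 70.9% for calcium-free over control (58.5% with upper quartile factors, 80.8% in the 2-group fit, 59.7% with the block); for thapsigargin over calcium-free 52.5% were higher (67.4% with no filter). Depth was similar in all libraries; the number of libraries and shared spans limit the precision.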
